A study of Mus musculus with 12 samples.

Results

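The genes described here make cholesterol and fatty acids or control that synthesis: 34 gene symbols listed as sterol synthesis enzymes (18), fatty acid synthesis and desaturation enzymes (10), and regulators of the sterol regulatory element-binding proteins (SREBPs) with the sterol carrier Stard4 (6). All probes named for these symbols on the arrays were taken. Of the 34 genes, 30 had a named probe and 29 were detected, among 9609 genes detected in all. Detection required a p-value against background under 0.01 on 2 or more arrays. The detected genes were 14 sterol enzymes, 9 fatty acid enzymes and all 6 regulators. Tm7sf2 had 1 probe, which was not detected, and Hmgcs1, Fdft1, Acat2 and Acaca were not analysed here.

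RNA came from TRAMP-C cells, a line grown out of a prostate tumour of TRAMP mice of strain C57BL6, in which the tumour is driven by a viral oncogene expressed in prostate epithelium. Cells were nucleofected with FOXA2 and HIF-1a together, with HIF-1a, with FOXA2 or with empty pcDNA vector (control), and 48 h later spent 12 h in 1% oxygen (hypoxia) or in normoxia. Every group therefore carried nucleofection and a plasmid, and the labels call the line itself wild-type. Each of the 4 transfections had 2 hypoxia arrays and 1 normoxia array, 12 Illumina arrays in all. FOXA2 is a forkhead transcription factor, and HIF-1a is the subunit through which hypoxia-inducible factor responds to oxygen. The study's question was the joint action of both factors in neuroendocrine prostate tumours.

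In animal cells SCAP carries SREBPs from the endoplasmic reticulum to the Golgi when membrane sterol is low, and there they are cut to release a transcription factor. INSIG proteins hold SCAP back when sterol is plentiful, and INSIG binding also marks sterol enzymes for degradation. SREBP-2, the product of Srebf2, acts mainly on cholesterol genes, while the SREBP-1c form made from Srebf1 acts mainly on fatty acid genes. Several steps of both routes consume molecular oxygen: squalene epoxidation, the removal of methyl groups from lanosterol, the last ring desaturation and the fatty acid desaturases.

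The arrays had 15322 to 17182 detected probes and mean intensities of 298.5 to 558.5, both highest on the FOXA2 and HIF-1a hypoxia array of replicate 1. Foxa2 read 9.27 to 10.98 on the log2 scale on the 6 arrays given its plasmid, against 6.14 to 7.07 on the other 6, and Hif1a read 11.98 to 13.18 against 9.06 to 9.64. The labels give the tissue as prostate tumour. Of its markers, 3 of 8 epithelial and prostate genes were detected, Krt18 was not, and the others had no probe named here, whereas 5 of 6 mesenchymal markers were detected. The summed linear level of the epithelial markers was 395 to 571 in hypoxia against 120 to 133 in normoxia, and that of the mesenchymal markers 14733 to 33713 against 17529 to 18559. Krt19 was at least 9.63-fold higher in hypoxia, since it was not above background on any of the 4 normoxia arrays. Krt19 carried the epithelial sum, as Krt8 (log2 difference -0.27, adjusted p 0.161 in limma) and Cdh1 (0.31, adjusted p 0.578) did not pass the test, and with replicate number as a block Cdh1 was called lower, at -0.40 (adjusted p 0.0492). Of the mesenchymal markers Vim rose (0.60, adjusted p 0.0401 in limma), Pdgfra fell (-0.43, adjusted p 0.0141), and Col1a1, Col1a2 and Dcn did not pass (adjusted p 0.339, 0.747 and 0.286). Of the other lists, 3 of 6 immune markers had a probe named here, and 1 was detected (Csf1r, 33.2 to 129 against 21.9 to 23.4). Csf1r was above background on 5 of 8 hypoxia and 0 of 4 normoxia arrays. It was called higher (adjusted p 0.0150 in limma), with a lower bound of 1.27-fold. All 4 endothelial but only 1 of 5 adipocyte markers had a probe, and 0 were detected. The part of these markers in the results was not tested, and in bulk RNA fewer cells of a type and less RNA per cell cannot be told apart.

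The labels do not give the replicates as separate cultures, so the p-values cover only the spread among these arrays. All 4 normoxia arrays carried replicate number 1. The 4 replicate 2 hypoxia arrays, and both other arrays of FOXA2 with HIF-1a, lay on slide 2, and the other 6 arrays lay on slide 1. Values below are background-corrected, quantile-normalized log2 intensity, and calls were made with limma at an adjusted p below 0.05 (Benjamini-Hochberg, over the 9609 genes). Values after ± are standard errors. Levels of 4 arrays are listed in the order FOXA2 with HIF-1a, HIF-1a, FOXA2, control.

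Hypoxia was compared with normoxia across the transfections to ask which steps of lipid synthesis moved with low oxygen. Of the 29 genes, 20 rose and 0 fell by limma with an adjusted p under 0.05 (22 had an unadjusted p under 0.05), where 14.4% of all genes tested were called higher and 30.4% were called at all. The rise took in 11 of 14 sterol enzymes, 4 of 9 fatty acid enzymes and 5 of 6 regulators. Median log2 change was 1.07 for the sterol enzymes, 0.47 for the fatty acid enzymes and 0.91 for the regulators, against -0.02 over all genes. Every hypoxia array lay above every normoxia array for 11 sterol enzymes, 3 fatty acid enzymes and 4 regulators, a pattern seen in 11.3% of all genes. The reverse pattern held for 1 of the 29, Elovl5, against 13.2% of all genes. Of the genes called, 12 had changed by more than 2-fold.

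**Figure D1:**
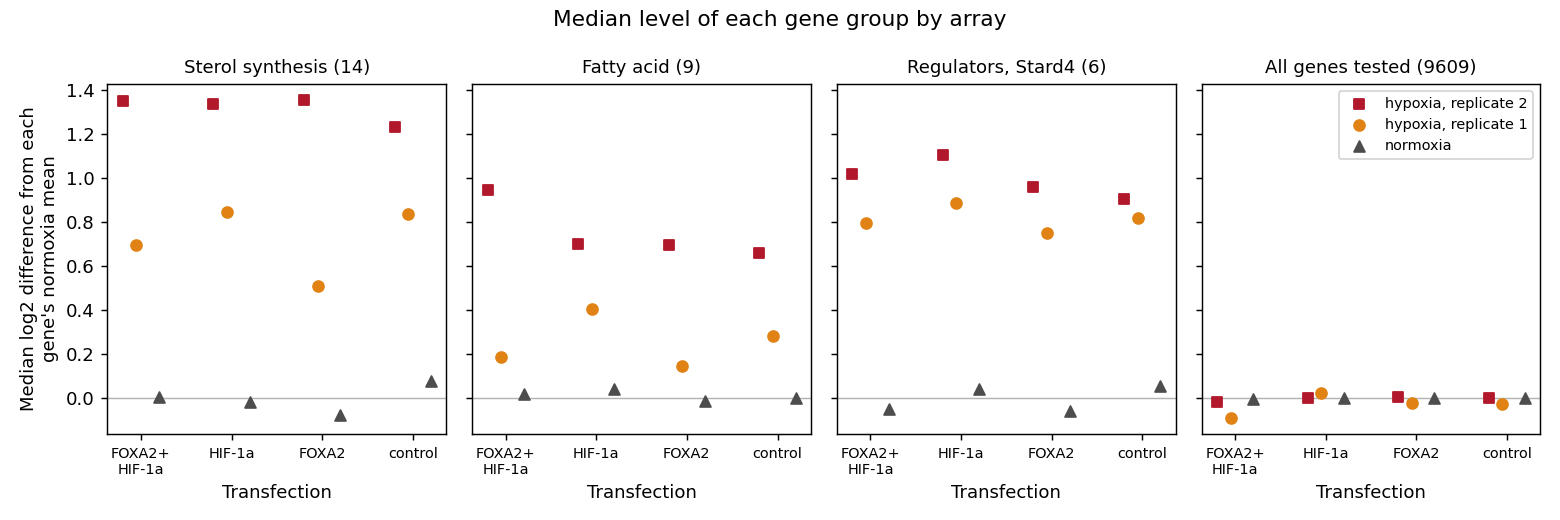
Median log2 difference from each gene's normoxia mean (vertical axis) on every array, by transfection, for the 14 sterol enzymes, the 9 fatty acid enzymes, the 6 regulators with Stard4, and all 9609 genes tested. Squares are replicate 2 hypoxia arrays, circles replicate 1 hypoxia arrays and triangles normoxia arrays; the sterol medians were 1.23 to 1.36 in replicate 2 and 0.51 to 0.84 in replicate 1, while those of all genes stayed between -0.09 and 0.02.

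The promoter windows of 5 genes are printed because these genes stand for the steps described below: a mevalonate and a lanosterol enzyme, the fatty acid gene with the largest change, an INSIG and Srebf2. Each window is RefSeq sequence of GRCm38.p6, from 250 bases before to 50 after the annotated start, read 5′ to 3′ on the gene's strand. Capitals mark matches on either strand to CCAAT, the box bound by NF-Y, a partner of SREBPs on many sterol genes. They also mark TCACNCCA, a sterol regulatory element-like motif, and ACGTG, a form of the core bound by hypoxia-inducible factors. CACGTG matches ACGTG on both strands. The other form of that core, GCGTG, was not searched, so it is neither marked nor counted.
Mvd, chr8:122443373-122443672, minus strand: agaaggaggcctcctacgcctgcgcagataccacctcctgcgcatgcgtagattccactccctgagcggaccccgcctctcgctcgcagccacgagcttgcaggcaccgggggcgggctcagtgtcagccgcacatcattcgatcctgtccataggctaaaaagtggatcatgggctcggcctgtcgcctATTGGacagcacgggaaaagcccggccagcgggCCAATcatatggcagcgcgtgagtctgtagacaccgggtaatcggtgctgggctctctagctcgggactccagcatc
Msmo1, chr8:64733529-64733828, minus strand: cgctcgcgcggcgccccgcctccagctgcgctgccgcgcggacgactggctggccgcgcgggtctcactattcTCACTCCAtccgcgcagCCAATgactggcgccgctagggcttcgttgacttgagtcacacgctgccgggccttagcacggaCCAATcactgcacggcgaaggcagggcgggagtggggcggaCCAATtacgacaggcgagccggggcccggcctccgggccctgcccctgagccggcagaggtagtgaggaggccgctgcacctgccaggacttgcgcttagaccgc
Acss2, chr2:155517793-155518092, plus strand: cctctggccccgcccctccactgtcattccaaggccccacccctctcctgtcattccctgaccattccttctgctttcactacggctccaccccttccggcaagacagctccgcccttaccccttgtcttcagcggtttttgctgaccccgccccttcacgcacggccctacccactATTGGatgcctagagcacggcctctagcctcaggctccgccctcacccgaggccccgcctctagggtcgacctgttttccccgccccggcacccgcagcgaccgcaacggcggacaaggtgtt
Insig1, chr5:28071162-28071461, plus strand: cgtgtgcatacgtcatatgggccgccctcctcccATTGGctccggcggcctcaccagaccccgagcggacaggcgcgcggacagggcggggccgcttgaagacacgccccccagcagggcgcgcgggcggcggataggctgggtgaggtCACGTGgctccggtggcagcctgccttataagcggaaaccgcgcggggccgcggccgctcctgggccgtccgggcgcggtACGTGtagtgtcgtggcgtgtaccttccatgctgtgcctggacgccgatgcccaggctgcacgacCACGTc
Srebf2, chr15:82147019-82147318, plus strand: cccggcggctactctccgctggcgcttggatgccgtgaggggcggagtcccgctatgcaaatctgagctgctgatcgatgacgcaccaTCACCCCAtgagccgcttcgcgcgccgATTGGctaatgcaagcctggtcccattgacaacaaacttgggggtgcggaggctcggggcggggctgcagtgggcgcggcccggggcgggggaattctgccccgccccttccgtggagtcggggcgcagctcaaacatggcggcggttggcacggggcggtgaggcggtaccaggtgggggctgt
Of the 29 detected genes, 23 had a window in the RefSeq table used, and some had several. CCAAT occurred in 20 of these 23 genes (87.0%), all 12 sterol enzymes with a window among them, against 41.1% of 27025 genes with such windows. ACGTG occurred in 8 of 23 (34.8%) against 21.8% of genes, and the Insig1 window above held 4 matches, 2 of them the strands of 1 CACGTG. TCACNCCA occurred in 2 of 23 (8.70%), Msmo1 and Srebf2, against 4.97%. Both are among the windows printed above, which therefore hold TCACNCCA more often than the 23 genes do. That shorter form was searched after the longer TCACNCCAC had matched 0 of the 23 genes, against 1.44%. Counted by window, CCAAT occurred in 67.7% of these genes' windows against 37.4% of all windows. ACGTG occurred in 29.0% against 19.6%, and TCACNCCA in 6.45% against 4.36%. The comparison genes were not limited to those detected on these arrays. A match describes these letters only.

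The early sterol enzymes turn mevalonate into farnesyl diphosphate, and 3 of the 5 detected rose in hypoxia. Mvd, which decarboxylates mevalonate diphosphate, had the largest change of the sterol enzymes. Its level lay between 8.32 and 9.74, median 9.24, in hypoxia, against 7.47, 7.51, 7.44 and 7.65 in normoxia. That was a 3.21-fold rise (log2 difference 1.68 ± 0.27, adjusted p 0.00102 in limma), and no hypoxia array fell into the normoxia range. Pmvk, the kinase that supplies Mvd, lay between 7.41 and 9.07, median 8.18, in hypoxia, against 6.93, 7.05, 6.66 and 7.08 in normoxia, and rose 2.37-fold (log2 difference 1.25 ± 0.30, adjusted p 0.00937 in limma). Fdps, which joins isoprene units into farnesyl diphosphate, lay between 11.55 and 12.57, median 12.06, in hypoxia, against 11.03, 10.89, 10.74 and 11.16 in normoxia, and rose 2.19-fold (log2 difference 1.13 ± 0.22, adjusted p 0.00335 in limma). A second Fdps probe gave a log2 difference of 1.09, so both probes read alike. Neither gene's arrays overlapped between oxygen levels.

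Mvk, the kinase that opens this stretch, and Idi1, which isomerises isopentenyl diphosphate, did not pass the test. Mvk lay between 5.94 and 6.69, median 6.31, in hypoxia, against 5.96, 6.06, 6.28 and 6.39 in normoxia (log2 difference 0.17 ± 0.15, adjusted p 0.395 in limma). Idi1 lay between 5.86 and 9.83, median 9.47, in hypoxia, against 8.50, 8.95, 8.71 and 8.62 in normoxia (log2 difference 0.28 ± 0.57, adjusted p 0.744 in limma). The wide error of Idi1 came with 1 array: HIF-1a hypoxia replicate 1 read 5.86, while the other 7 hypoxia arrays read 8.72 to 9.83. Without the other HIF-1a hypoxia array the difference was -0.0057, and blocking on replicate number gave -0.31 (adjusted p 0.708).

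The middle of the route makes squalene into the first sterol, and both detected enzymes rose. Sqle, the epoxidase that uses molecular oxygen at a rate-controlling step, lay between 12.10 and 12.88, median 12.54, in hypoxia, against 11.25, 11.26, 11.12 and 11.20 in normoxia. It rose 2.43-fold (log2 difference 1.28 ± 0.14, adjusted p 6.92e-05 in limma), and a second probe gave a log2 difference of 1.48. Lss, which folds the epoxide into lanosterol, lay between 10.36 and 11.27, median 10.87, in hypoxia, against 9.49, 9.54, 9.40 and 9.68 in normoxia. It rose 2.55-fold (log2 difference 1.35 ± 0.18, adjusted p 0.000296 in limma). For both genes each hypoxia array exceeded each normoxia array.

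After lanosterol, 6 of the 7 detected enzymes rose. Cyp51, the cytochrome P450 that removes the first methyl group, lay between 10.59 and 11.99, median 11.35, in hypoxia, against 10.18, 10.10, 10.02 and 10.34 in normoxia, a 2.26-fold rise (log2 difference 1.18 ± 0.20, adjusted p 0.00164 in limma). Msmo1, the methyl sterol oxidase that follows, lay between 12.30 and 12.76, median 12.33, in hypoxia, against 11.56, 11.62, 11.27 and 11.36 in normoxia, a 2.02-fold rise (log2 difference 1.01 ± 0.13, adjusted p 0.000319 in limma). Sc5d, which introduces the last ring double bond of this series, lay between 7.12 and 7.76, median 7.51, in hypoxia, against 6.63, 6.44, 6.65 and 6.58 in normoxia, a 1.87-fold rise (log2 difference 0.91 ± 0.14, adjusted p 0.000761 in limma). These 3 enzymes consume oxygen, and none of their arrays overlapped between oxygen levels.

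The other post-lanosterol enzymes need no molecular oxygen. Nsdhl, the dehydrogenase that works with Msmo1, lay between 7.21 and 9.02, median 8.32, in hypoxia, against 6.95, 6.74, 6.69 and 6.68 in normoxia, a 2.66-fold rise (log2 difference 1.41 ± 0.40, adjusted p 0.0216 in limma). Its 3 other probes gave log2 differences of 1.22 to 1.65. Its call was lost when any 1 of the 4 normoxia arrays was left out (adjusted p 0.0614 to 0.0818), and its difference was 0.67 with replicate number as a block. Hsd17b7, the ketoreductase of the same complex, rose 1.46-fold (log2 difference 0.54 ± 0.11, adjusted p 0.00409 in limma), and Ebp, the isomerase that follows, 1.35-fold (log2 difference 0.44 ± 0.11, adjusted p 0.0109). The Ebp call was lost without the FOXA2 normoxia array (adjusted p 0.0538) or the HIF-1a normoxia array (adjusted p 0.0661). Dhcr7, the reductase that completes cholesterol, lay between 6.64 and 8.12, median 7.71, in hypoxia, against 6.67, 6.94, 7.04 and 6.75 in normoxia, and did not pass the test (log2 difference 0.70 ± 0.30, adjusted p 0.0980).

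**Figure D2:**
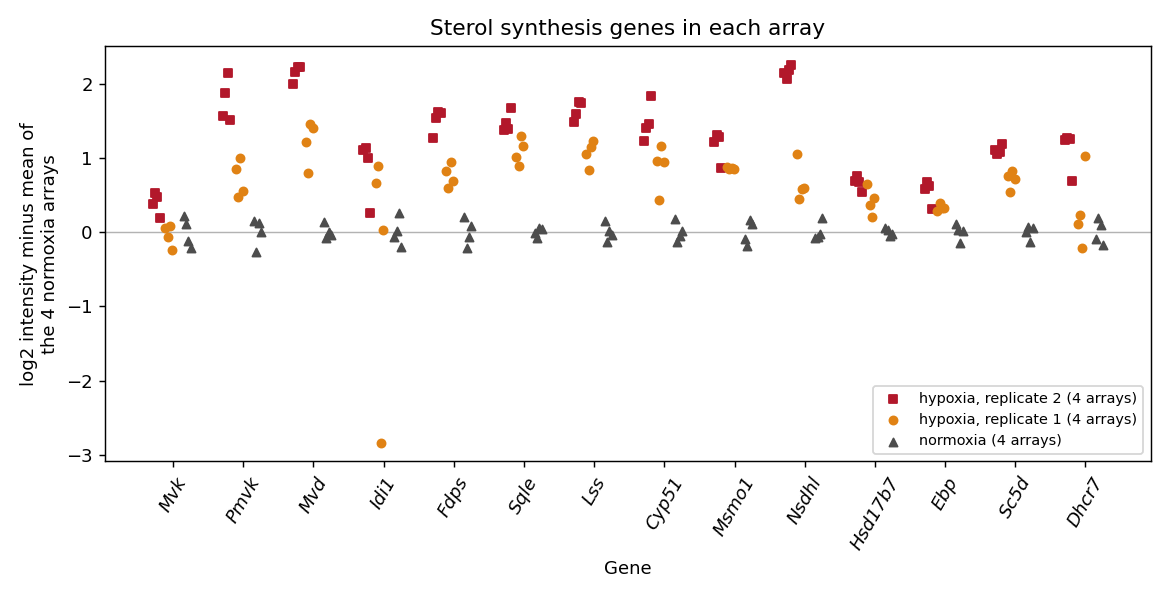
Each array's log2 intensity minus the mean of the 4 normoxia arrays (vertical axis) for the 14 detected sterol synthesis genes in pathway order (horizontal axis). Squares are the 4 replicate 2 hypoxia arrays, circles the 4 replicate 1 hypoxia arrays and triangles the 4 normoxia arrays; hypoxia and normoxia points overlap for Mvk, Idi1 and Dhcr7, and the single low Idi1 point is the HIF-1a hypoxia array of replicate 1.

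The sterol medians moved with the replicate number. With replicate number as a block the median log2 change of the 14 sterol enzymes was 0.71 in place of 1.07, and 11 were still called, where 13.9% of all genes were called higher in that fit. The block leaves the replicate 2 hypoxia arrays with no normoxia array of their own number, so it gives the difference between replicate 1 arrays. Leaving out 1 array at a time gave 9 to 13 sterol calls.

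Fatty acid genes moved less evenly: 4 of 9 rose, and 5 did not pass the test. Acss2, which makes cytosolic acetyl-CoA from acetate, had the largest change of all 29 genes. Its level lay between 7.83 and 9.53, median 8.43, in hypoxia, against 6.52, 6.64, 6.56 and 6.56 in normoxia, a 4.08-fold rise (log2 difference 2.03 ± 0.29, adjusted p 0.000580 in limma), with no overlap. Acly, which makes the same acetyl-CoA from citrate, lay between 12.78 and 13.34, median 13.14, in hypoxia, against 12.65, 12.61, 12.64 and 12.64 in normoxia, a 1.39-fold rise (log2 difference 0.47 ± 0.12, adjusted p 0.0152 in limma). The groups did not overlap, but the Acly call was lost without the control normoxia array (adjusted p 0.0576) or the HIF-1a normoxia array (adjusted p 0.0712). Fasn, the synthase that builds palmitate, was detected on 7 of 8 hypoxia and 3 of 4 normoxia arrays and did not pass the test (log2 difference 0.35 ± 0.17, adjusted p 0.148 in limma).

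The desaturases place double bonds in fatty acids with the use of oxygen, and 2 of 4 rose. Scd2, a stearoyl-CoA desaturase, lay between 8.72 and 10.63, median 9.82, in hypoxia, against 8.24, 8.49, 8.25 and 8.06 in normoxia, a 2.85-fold rise (log2 difference 1.51 ± 0.31, adjusted p 0.00403 in limma), with no overlap. Its close paralog Scd1 lay between 11.21 and 12.47, median 11.93, in hypoxia, against 11.55, 11.37, 11.33 and 11.31 in normoxia and did not pass the test (log2 difference 0.50 ± 0.26, adjusted p 0.164 in limma). Probe sequences were not used here, so how far each probe reads the other paralog was not examined. Fads2, the first desaturase of polyunsaturated fatty acids, lay between 7.29 and 8.20, median 7.75, in hypoxia, against 7.16, 6.93, 6.92 and 7.37 in normoxia, a 1.59-fold rise (log2 difference 0.67 ± 0.18, adjusted p 0.0153 in limma) with overlapping arrays. A second Fads2 probe gave 0.49 with an adjusted p of 0.134 when every probe was tested. The Fads2 call was also lost without the FOXA2 with HIF-1a, HIF-1a or FOXA2 normoxia array (adjusted p 0.0658, 0.0848 and 0.0589). Fads1, which acts later on the same chains, did not pass the test (log2 difference 0.34 ± 0.13, adjusted p 0.0598).

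Neither elongase passed the test. Elovl5, which lengthens polyunsaturated chains, was lower on every hypoxia array than on every normoxia array, between 12.08 and 12.33, median 12.25, against 12.37, 12.35, 12.41 and 12.48, but by little (log2 difference -0.18 ± 0.09, adjusted p 0.153 in limma). Elovl6, which lengthens palmitate, lay between 8.71 and 9.85, median 9.36, in hypoxia, against 8.97, 8.99, 8.88 and 8.95 in normoxia, a log2 difference of 0.36 ± 0.22 (adjusted p 0.234 in limma) at the probe of highest mean intensity. Its other probe went the other way, with a log2 difference of -0.31 and an adjusted p of 0.0486 when every probe was tested, so its direction rests on the probe chosen. Over the 9 fatty acid genes, the median log2 change of 0.47 became 0.18 with replicate number as a block, with 4 still called. Leaving out the HIF-1a normoxia array left 2 called, Acss2 and Scd2.

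Among the regulators, the transcription factor genes, both INSIG genes and the sterol carrier rose. Srebf1 lay between 7.31 and 7.56, median 7.34, in hypoxia, against 6.37, 6.49, 6.69 and 6.48 in normoxia, a 1.83-fold rise (log2 difference 0.87 ± 0.09, adjusted p 5.16e-05 in limma). The annotation used here does not say which Srebf1 transcripts the probe reads. Srebf2 lay between 8.36 and 9.38, median 8.79, in hypoxia, against 8.24, 8.40, 8.15 and 8.46 in normoxia, a 1.39-fold rise with overlapping arrays (log2 difference 0.47 ± 0.16, adjusted p 0.0427 in limma). That call was the least stable of the 20: it was lost under 13 of 23 alternatives, among them the replicate block (0.24, adjusted p 0.135), the slide block (0.36, adjusted p 0.116) and each normoxia array left out (0.35 to 0.56, adjusted p 0.0606 to 0.191). A second Srebf2 probe gave a log2 difference of 0.17.

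Scap, the SREBP escort, lay between 8.47 and 8.84, median 8.69, in hypoxia, against 8.53, 8.78, 8.62 and 8.50 in normoxia, and did not pass the test (log2 difference 0.06 ± 0.09, adjusted p 0.651 in limma). The INSIG genes, whose products retain that escort, both rose without overlap. Insig1 lay between 10.25 and 10.95, median 10.57, in hypoxia, against 9.30, 9.41, 9.19 and 9.39 in normoxia, a 2.40-fold rise (log2 difference 1.26 ± 0.17, adjusted p 0.000315 in limma). Insig2 lay between 9.55 and 10.23, median 9.83, in hypoxia, against 8.85, 8.81, 8.90 and 8.92 in normoxia, a 1.93-fold rise (log2 difference 0.95 ± 0.12, adjusted p 0.000248 in limma). The further probes read alike, with log2 differences of 1.46 and 1.50 for Insig1 and 0.99 for Insig2. Stard4, which carries cholesterol between membranes, lay between 9.90 and 10.55, median 10.27, in hypoxia, against 9.18, 9.14, 8.96 and 9.31 in normoxia, a 2.19-fold rise (log2 difference 1.13 ± 0.11, adjusted p 3.72e-05 in limma), the smallest adjusted p of the 29 genes.

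**Figure D3:**
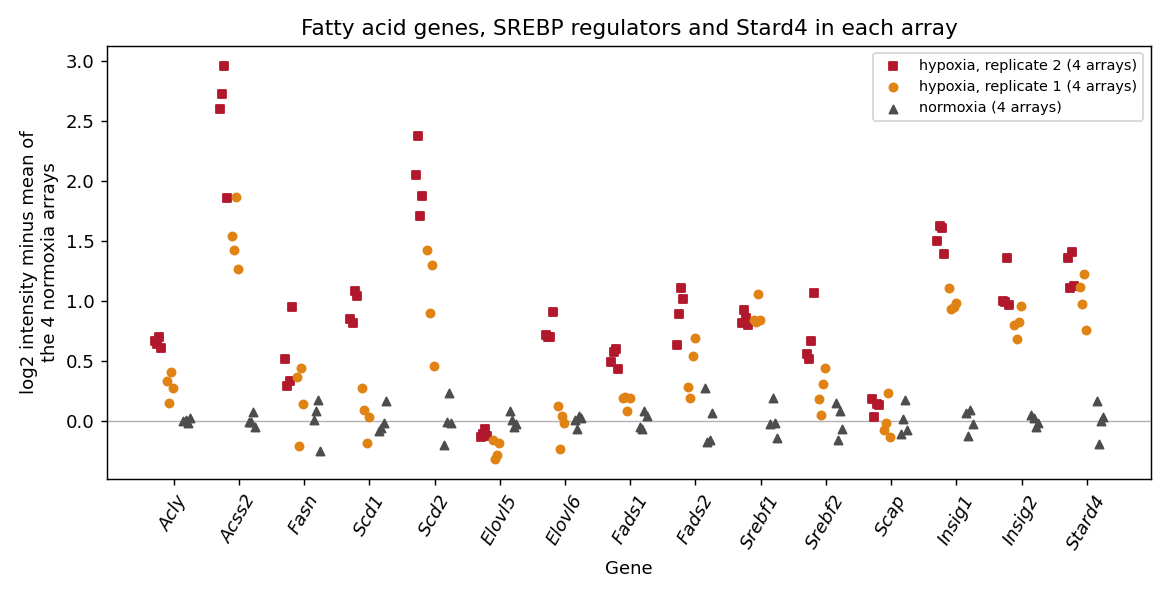
Each array's log2 intensity minus the mean of the 4 normoxia arrays (vertical axis) for the 9 fatty acid genes and the 6 regulators with Stard4 (horizontal axis). Squares are the 4 replicate 2 hypoxia arrays, circles the 4 replicate 1 hypoxia arrays and triangles the 4 normoxia arrays; the squares of Acss2, Scd2, Scd1 and Elovl6 stand above their circles, except 1 Acss2 square level with the top circle, while those of Srebf1 mix with them.

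Taken by their chemistry, the 8 detected enzymes that consume oxygen (Sqle, Cyp51, Msmo1, Sc5d, Scd1, Scd2, Fads1 and Fads2) included 6 that rose, with a median log2 change of 0.96. The 10 other sterol enzymes included 7 that rose, with a median of 0.92, and the 5 other fatty acid enzymes 2, with a median of 0.36. The difference between these groups was not tested.

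The 2 hypoxia replicates of each transfection were then compared, since all normoxia arrays carry replicate number 1. Replicate 2 was higher than replicate 1 for 15 of the 29 genes and lower for 0 by limma with an adjusted p under 0.05 (20 had an unadjusted p under 0.05), where 8.44% of all genes were called higher and 8.01% lower. The 15 were 8 sterol enzymes, 5 fatty acid enzymes and 2 regulators. Replicate 2 lay above replicate 1 in all 4 transfections for 24 of the 29 genes and below in all 4 for 0, against 21.4% and 19.4% of all genes. The numbers coincide with slides in 3 of 4 transfections, so replicate and slide cannot be told apart there, and with the slide as a block 5 of the 29 were called, all higher: Fdps, Nsdhl, Scd1, Scd2 and Elovl6. With that block 12.7% of all genes were called, 6.44% higher and 6.22% lower. In that fit the replicate difference is that of the FOXA2 with HIF-1a pair alone, whose arrays both lay on slide 2. So these calls rest on 1 pair of arrays, and its replicate 1 array had the highest mean intensity of all (558.5). In the fit with no slide term, 6 were called without either FOXA2 hypoxia array and 8 without either control hypoxia array.

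Among the sterol enzymes, Nsdhl had the largest replicate difference that passed. It read 9.02, 8.95, 8.83 and 8.90 in replicate 2, against 7.35, 7.35, 7.21 and 7.82 in replicate 1 (log2 difference 1.49 ± 0.13, adjusted p 0.00100 in limma). Pmvk read 8.44, 9.07, 8.81 and 8.49 in replicate 2, against 7.49, 7.92, 7.41 and 7.78 in replicate 1 (log2 difference 1.05 ± 0.14, adjusted p 0.00284 in limma). Mvd read 9.74, 9.74, 9.68 and 9.51 in replicate 2, against 8.92, 8.97, 8.32 and 8.73 in replicate 1 (log2 difference 0.93 ± 0.13, adjusted p 0.00427 in limma). All 4 replicate 2 arrays of each of these genes lay above all 4 replicate 1 arrays. Fdps followed with 12.55, 12.57, 12.49 and 12.22 in replicate 2, against 11.64, 11.90, 11.55 and 11.77 in replicate 1 (log2 difference 0.74 ± 0.12, adjusted p 0.00741 in limma). Lss had 11.26, 11.27, 11.12 and 11.00 in replicate 2, against 10.75, 10.68, 10.36 and 10.58 in replicate 1 (log2 difference 0.57 ± 0.11, adjusted p 0.0130 in limma). Both again separated the replicates completely. Cyp51 had 11.99, 11.62, 11.57 and 11.38 in replicate 2, against 11.11, 11.32, 10.59 and 11.12 in replicate 1 (log2 difference 0.61 ± 0.15, adjusted p 0.0335). Sc5d had 7.76, 7.66, 7.63 and 7.68 in replicate 2, against 7.29, 7.40, 7.12 and 7.33 in replicate 1 (log2 difference 0.40 ± 0.11, adjusted p 0.0424). Mvk had 6.36, 6.65, 6.69 and 6.55 in replicate 2, against 5.94, 6.25, 6.10 and 6.22 in replicate 1 (log2 difference 0.43 ± 0.11, adjusted p 0.0308). These last 3 differences were smaller than those of the first 4 genes.

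Sqle and Msmo1, next to these genes in the pathway, did not pass between replicates. Sqle read 12.88, 12.60, 12.68 and 12.58 in replicate 2, against 12.37, 12.50, 12.10 and 12.22 in replicate 1 (log2 difference 0.39 ± 0.12, adjusted p 0.0631 in limma). Msmo1 read 12.32, 12.74, 12.76 and 12.67 in replicate 2, against 12.30, 12.32, 12.31 and 12.34 in replicate 1 (log2 difference 0.31 ± 0.12, adjusted p 0.118 in limma).

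Fatty acid genes showed the replicate split as well. Acss2 read 8.43, 9.53, 9.29 and 9.16 in replicate 2, against 7.83, 8.43, 7.99 and 8.11 in replicate 1 (log2 difference 1.01 ± 0.14, adjusted p 0.00346 in limma). Scd2 read 10.13, 9.97, 10.63 and 10.31 in replicate 2, against 8.72, 9.55, 9.16 and 9.68 in replicate 1 (log2 difference 0.98 ± 0.19, adjusted p 0.0137 in limma). Scd1 read 12.43, 12.47, 12.20 and 12.24 in replicate 2, against 11.42, 11.21, 11.48 and 11.66 in replicate 1 (log2 difference 0.89 ± 0.14, adjusted p 0.00535 in limma). Both desaturases separated the replicates, while the lowest replicate 2 value of Acss2, with both plasmids, lay just below its highest replicate 1 value, with HIF-1a. Elovl6 read 9.85, 9.65, 9.64 and 9.66 in replicate 2, against 8.93, 8.99, 8.71 and 9.08 in replicate 1 (log2 difference 0.78 ± 0.12, adjusted p 0.00473 in limma). Its other detected probe read 5.61, 5.87, 5.68 and 5.89 in replicate 2, against 5.58, 5.48, 5.79 and 5.95 in replicate 1. The Elovl6 calls between replicates, with and without the slide block, therefore rest on the probe chosen. Fads2 read 8.11, 8.20, 7.99 and 7.72 in replicate 2, against 7.79, 7.64, 7.29 and 7.38 in replicate 1 (log2 difference 0.48 ± 0.12, adjusted p 0.0275 in limma). Against normoxia, Scd1 differed by 0.95 in replicate 2 and by 0.05 in replicate 1, and Elovl6, at its probe of highest mean intensity, by 0.75 and -0.02.

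Of the regulators, Insig1 and Srebf2 were higher in replicate 2. Insig1 read 10.71, 10.93, 10.95 and 10.82 in replicate 2, against 10.30, 10.27, 10.25 and 10.43 in replicate 1 (log2 difference 0.54 ± 0.11, adjusted p 0.0171 in limma). Srebf2 read 9.38, 8.98, 8.82 and 8.87 in replicate 2, against 8.75, 8.62, 8.36 and 8.49 in replicate 1 (log2 difference 0.46 ± 0.11, adjusted p 0.0266 in limma). Srebf1 did not pass the test between replicates and had the smallest difference of the 29 genes. It read 7.31, 7.36, 7.43 and 7.32 in replicate 2, against 7.34, 7.56, 7.33 and 7.34 in replicate 1 (log2 difference -0.04 ± 0.11, adjusted p 0.832 in limma). Against normoxia it differed by 0.85 in replicate 2 and by 0.89 in replicate 1.

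**Figure D4:**
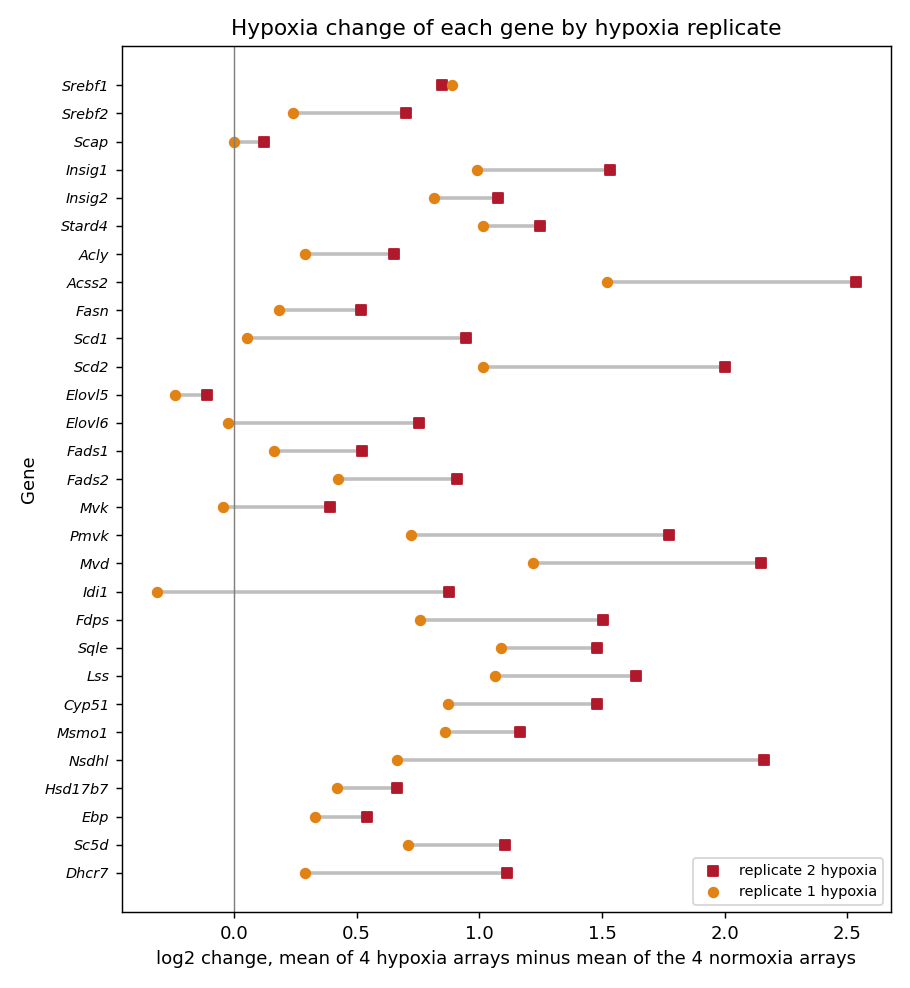
Log2 change from the mean of the 4 normoxia arrays (horizontal axis) of the mean of the 4 replicate 2 hypoxia arrays (squares) and the mean of the 4 replicate 1 hypoxia arrays (circles) for the 29 genes, with a grey line joining them. Replicate 2 lies to the right of replicate 1 for every gene except Srebf1, where the values were 0.85 and 0.89.

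Both replicates lay above the normoxia array of the same transfection in all 4 transfections for 20 of the 29 genes, against 15.6% of all genes. Replicate 1 alone did so for 20 of 29, against 21.0% of all genes, with median log2 changes of 0.72 for the sterol enzymes, 0.26 for the fatty acid enzymes and 0.80 for the regulators. The same medians in replicate 2 were 1.32, 0.74 and 0.96. In a comparison added after seeing the data, the 4 replicate 2 hypoxia arrays against the 4 normoxia arrays, all 14 sterol enzymes, 8 of 9 fatty acid enzymes and 5 of 6 regulators with Stard4 were called higher, and Elovl5 and Scap were not called. In that fit 52.9% of all genes were called, with 25.7% of all genes higher and 27.2% lower. Since all normoxia arrays carry number 1, replicate number and oxygen cannot be told apart there.

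The plasmids were compared to ask whether FOXA2 or HIF-1a moved these genes. With FOXA2 present against absent, 0 of 29 genes were called by limma, where 0.0208% of all genes were called, and 1 had an unadjusted p under 0.05: Stard4, at -0.24 ± 0.10. The differences of the 29 genes ran from -0.30 to 0.33. With replicate number as a block 0 of 29 were again called. Stard4 (-0.24, p 0.00933) and Pmvk (-0.28, p 0.0238) then had an unadjusted p under 0.05 in limma. With the HIF-1a plasmid present against absent, 0 of 29 were called by limma, where 0.0104% of all genes were called, and 0 had an unadjusted p under 0.05. Those differences ran from -0.87, for Idi1, to 0.22. With the slide as a block 0 of 29 were called for either plasmid, but some had an unadjusted p under 0.05 in limma. They were Acss2 (-0.57, p 0.0287), Pmvk (-0.55, p 0.0259) and Stard4 (-0.31, p 0.00983) for FOXA2. For the HIF-1a plasmid they were Idi1 (-1.29, p 0.0182) and Hsd17b7 (-0.21, p 0.0386). Within hypoxia, FOXA2 with HIF-1a, HIF-1a and FOXA2 each compared with control gave 0 called and 0 with an unadjusted p under 0.05, where 0% of all genes were called. The FOXA2 by HIF-1a interaction in hypoxia, the term for joint action, was likewise called for 0 of 29 and 0% of all genes. There too 0 of the 29 had an unadjusted p under 0.05 in limma. These comparisons share the control arrays, and their fit held no replicate term. With replicate number as a block 0 of 29 were again called, but in limma some had an unadjusted p under 0.05. They were Acss2 (-0.51, p 0.0304), Srebf2 (0.38, p 0.0373) and Fads2 (0.40, p 0.0410) for both plasmids against control. HIF-1a against control gave Idi1 (-1.80, p 0.0472) and the interaction Acss2 (-0.85, p 0.0141). With the slide as a block the Acss2 interaction was -1.43 (p 0.00316, adjusted p 0.750).

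Idi1 was the exception that 1 array decided. Its hypoxia arrays with HIF-1a read 9.69 in replicate 2 and 5.86 in replicate 1, against 9.80 and 9.36 in the control. Without replicate 2 of the HIF-1a hypoxia group, Idi1 was called lower with HIF-1a than in the control in hypoxia (log2 difference -3.72, adjusted p 0.00274 in limma), resting on the single low array.

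The hypoxia response was also taken within each transfection, in a fit that lends each single normoxia array the spread of the hypoxia pairs. By limma 0 of 29 genes were called in any transfection, where 0.614% of all genes were called with FOXA2 and HIF-1a (0.593% higher), 0.76% with HIF-1a (0.749% higher), 0.687% with FOXA2 (0.676% higher) and 0.656% in the control (0.645% higher). Of the 29 genes 12, 14, 11 and 11 had an unadjusted p under 0.05. The sterol medians were close: 1.04 with FOXA2 and HIF-1a, 1.19 with HIF-1a, 1.16 with FOXA2 and 0.94 in the control. The fatty acid medians were 0.42, 0.47, 0.46 and 0.43 in that order, and the regulator medians 0.93, 1.06, 0.75 and 0.85. With replicate number as a block, 8 of the 29 genes were called higher in at least 1 transfection: Sqle, Lss, Mvd, Msmo1, Acss2, Srebf1, Insig1 and Stard4. They numbered 4 with FOXA2 and HIF-1a (2.73% of all genes called), 6 with HIF-1a (3.34%), 6 with FOXA2 (2.47%) and 2 in the control (2.24%), which were Acss2 and Stard4. The difference of responses between each plasmid group and the control was called for 0 of 29 genes by limma, with 0 at an unadjusted p under 0.05 and 0% of all genes called.

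**Figure D5:**
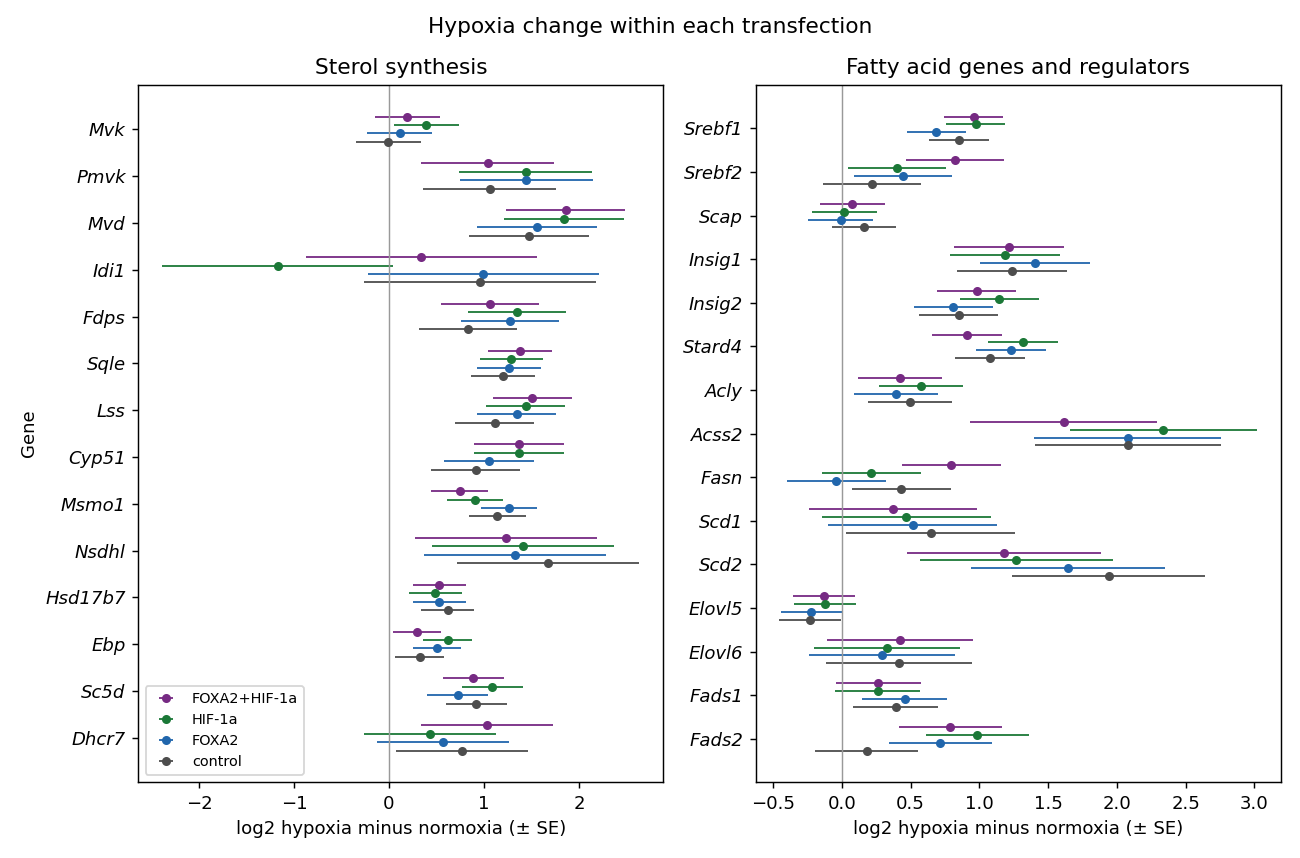
Log2 hypoxia minus normoxia (horizontal axis, point with standard error) within each transfection for the sterol genes (left) and the fatty acid genes and regulators (right), with FOXA2 and HIF-1a, HIF-1a, FOXA2 and control running down in each gene. The 4 points of a gene mostly overlap within their errors, and the Idi1 point of HIF-1a stands alone well below 0 among the sterol genes.

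Other genes of these routes were taken from a list of 47. Of these, 30 had a probe named here and 26 were detected, and 5 rose, 5 fell and 16 did not pass the test, with a median log2 change of 0.04. Over all genes 14.4% were called higher and 15.9% lower, so both shares of these 26 lay near the background. Lpin1, a phosphatidate phosphatase and known SREBP target, read 7.82, 8.26, 8.06 and 7.93 in replicate 2 and 6.68, 6.24, 6.43 and 6.67 in replicate 1 of hypoxia, against 4.59, 4.57, 4.90 and 4.64 in normoxia. It was not above background on any normoxia array, so it was at least 4.07-fold higher in hypoxia (adjusted p 0.00105 in limma). Aacs, which activates acetoacetate for lipid synthesis, rose (log2 difference 0.88 ± 0.17, adjusted p 0.00308 in limma), as did the citrate carrier Slc25a1 (log2 difference 0.60 ± 0.15, adjusted p 0.0112) and Erlin2, which takes part in sterol-dependent degradation of membrane proteins (log2 difference 0.31 ± 0.08, adjusted p 0.0167).

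The 4 genes that fell with the smallest p were Mcat, of mitochondrial fatty acid synthesis (log2 difference -0.63 ± 0.12, adjusted p 0.00256 in limma), and 3 genes that act on SREBPs or sterol enzymes as proteins. Mbtps2, the protease that makes the second SREBP cut, fell by 0.53 ± 0.12 on the log2 scale (adjusted p 0.00579 in limma). Rnf139, an endoplasmic reticulum ubiquitin ligase, fell by 0.71 ± 0.18 (adjusted p 0.0119), detected on 6 of 8 hypoxia and 4 of 4 normoxia arrays. Erlin1, the partner of Erlin2, fell by 0.49 ± 0.13 (adjusted p 0.0157).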

How the data were processed

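Per the labels' protocols, 500 ng of total RNA per sample was amplified, biotin-labelled, stained with Cy3 and hybridised to Mouse-6 BeadChips. The values used are linear, non-normalized intensities of 45281 probes as the authors deposited them, each with a deposited detection p-value. The scanner software was not given in the sources. The authors also deposited a processed intensity table of 26415 probes. It equalled a quantile normalization of the non-normalized values of those probes, with no background correction (largest log2 gap 4.81e-10), and served only as an alternative.

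In R 4.3.3, limma's neqc (version 3.58.1) corrected the intensities (background from the detection p-values, offset 16), quantile normalized them and took log2. Of 17436 detected probes, 14981 had 1 gene symbol in the platform annotation, 5 several and 2450 none. The detected probe of highest mean intensity stood for each gene. Where all normoxia arrays were below background, a fold is a lower bound, set against the lowest signal of detected probes. The number of arrays limits the precision. No sample column was left aside (0 columns).

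The oxygen comparison came from a model with transfection and oxygen terms over 12 arrays, replicates in a fit of transfection plus replicate number over 8 hypoxia arrays, plasmids in an additive fit, and single transfections in a fit with a mean per group, all with lmFit and eBayes of limma. The scripts were tested on simulated data. The genes, lists and naming rule were chosen with earlier results of these data known. Values are given for the 6 sterol and 4 fatty acid genes of smallest p, all regulators and any gene called between replicates or plasmids. The text gives some others too.

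Replicate numbers come from the labels. Deviations of same-numbered hypoxia arrays from their group means correlated in all 6 pairs of transfections (r = 0.286 to 0.782). Outside FOXA2 with HIF-1a, replicate number and slide coincide, so there a shared number and a shared slide cannot be told apart. FOXA2 with HIF-1a, whose hypoxia arrays lay on the same slide, gave 0.490 with control, 0.514 with FOXA2 and 0.286 with HIF-1a. Alternatives were the processed table, no background correction, other detection filters and probe choices, slide or replicate block, a mean per group, slide 1 or replicate 1 arrays alone, and each array left out.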

Additional observations from a re-analysis of the deposited data

Results flagged for a closer look

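Among the 8 hypoxia arrays, Idi1 read 5.86 on the log2 scale on the HIF-1a array of replicate 1, far below the other 7, which read 8.72 to 9.83. The gap to its nearest neighbour made up 0.722 of the whole range. Insig2 read 10.23 on the HIF-1a array of replicate 2, above the other 7 hypoxia arrays, which read 9.55 to 9.87, with a gap of 0.535 of the range. These were 2 of the 58 groups of arrays examined. Chance alone sets apart about 1 in 20 such groups where all arrays of a group vary alike. The hypoxia arrays mix transfections and replicate numbers, so that rate may not hold for them.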

How the results depend on the processing

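Of the 20 genes called in hypoxia, 14 were called under every one of 23 alternatives, and Nsdhl, Hsd17b7, Ebp, Acly, Fads2 and Srebf2 lost the call under 5, 1, 4, 5, 4 and 13. Leaving out 1 array at a time gave 9 to 13 sterol calls, 2 to 5 fatty acid calls (2 without the HIF-1a normoxia array) and 4 to 5 regulator calls. On slide 1 alone 2 fatty acid genes were called, and with the replicate 2 hypoxia arrays against normoxia 8. With replicate number as a block, the log2 difference turned to -0.31 for Idi1, -0.044 for Mvk and -0.023 for Elovl6, and replicate 1 arrays alone gave the same values. With that block 8 of the 29 genes were called within a transfection in place of 0, and Srebf2 lost its call over all transfections; the block changed no other call of hypoxia against normoxia over all transfections. With the slide as a block Idi1 was at -0.24 and 2 genes were called within a transfection, and with every detected probe tested 1 was. Slide 1 alone gave -0.49 for Idi1, -0.052 for Mvk, -0.017 for Dhcr7 and -0.018 for Elovl6. Without replicate 2 of the HIF-1a hypoxia group Idi1 was at -0.0057 (to 0.76 without other arrays), and 1 gene, Idi1, was called within HIF-1a, in its difference of response from control and in hypoxia against control; with any other array left out 0 were, as in the comparisons of FOXA2 and of the HIF-1a plasmid. Between hypoxia replicates 6 to 17 genes were called with 1 array left out (6 without either FOXA2 array, 8 without either control array) and 5 with the slide as a block, which turned Dhcr7 to -0.34 and Ebp to -0.011. With that block the replicate difference is that of the FOXA2 with HIF-1a pair alone. In the fit with no slide term Srebf1 turned to 0.015 without either HIF-1a hypoxia array, with other arrays left out down to -0.089. The causes were not tested. The number of arrays limits the precision.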
